A study of Danio rerio with 16 samples.

Results

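Brain transcript levels were compared between 2 zebrafish strains, in the 4 pools labelled TM1 and the 4 pools labelled Gaighatta, which are 8 of the 16 arrays of a study of 4 strains that differ in their history of captive breeding. Each strain was represented by 2 female pools (F1 and F2) and 2 male pools (M1 and M2). A pool held the whole brains of the 2 to 5 adults, 4 to 6 months old, that shared a tank. All fish had been raised in the same facility and had been observed in a behavioral assay before sampling. The study describes TM1 as a domesticated strain that carries a GFP transgene, and Gaighatta as a wild strain. A pool is 1 measurement of several fish, so the spread between pools does not give the spread between fish, and each strain came from 1 stock. Each value is a log2 RMA expression value of 1 probe set, a group of short oligonucleotides for 1 transcript, and a difference of 1 is a 2-fold difference. Levels of different probe sets are not comparable with each other.

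The strain names on the deposited arrays went against the transgene. The GFP control probe set was at 8.58 to 10.46 in the 4 pools labelled Gaighatta and at 2.99 to 3.36 in the 4 pools labelled TM1. Value by value, the arrays labelled TM1 also carry the numbers that the study's own tables print for Gaighatta, and those labelled Gaighatta the numbers printed for TM1, in 1645 of 1645 probe sets for each of the 16 arrays. The arrays labelled SH likewise carry the printed numbers of Nadia, and those labelled Nadia the numbers of SH. The strains are therefore called by their deposited labels throughout, all differences are given as labelled TM1 minus labelled Gaighatta, and nothing is read from them about domestication. In the 12 arrays with other labels the GFP probe sets were at 2.46 to 3.57. Levels this low may lie near background, where the size of a difference is uncertain. Background can differ between probe sets, so no common floor was set. Sequence differences between the strains under the probes are still part of these values, because the study's filter on polymorphic probes was not applied here. Transcripts of brain were plain in both strains: snap25a, a SNARE protein of synapses, was at 11.89 to 12.41 in the 8 pools, and fabp7a, a lipid carrier of radial glia, at 11.12 to 11.76.

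The circadian clock of vertebrates is a loop in which the activators Clock and Bmal switch on the genes of their own repressors, the Period and Cryptochrome proteins, while nuclear receptors of the Ror and Rev-erb families set the level of Bmal. In zebrafish the loop runs in most tissues and is reset directly by light, and several genes of DNA repair by light follow it. The brain also holds microglia, the resident phagocytes, and reads antigen-presenting and interferon-induced genes when they are activated. Genes of both systems were among those that separated the 2 strains.

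Of the 7922 probe sets tested, 1654 (20.9%) differed between the 2 strains in limma at an adjusted p under 0.05. The higher level was in the pools labelled TM1 for 655 (8.27%) and in the pools labelled Gaighatta for 999 (12.6%). At least 2-fold differences were found for 219 (2.76%), of which 119 were higher (1.5%) and 100 lower (1.26%) in the pools labelled TM1, and 43 differed at least 4-fold. The median size of a called difference was 0.49, and the smallest was 0.25. The 4 and 4 pools did not overlap in 1989 probe sets (25.1%), of which 1404 were also called. With 1 probe set per gene, 993 of 4922 genes (20.2%) were called, 409 higher (8.31%) and 584 lower (11.9%), and the median difference of all genes was -0.04. Pools of the same strain correlated across probe sets with an r of 0.967 to 0.988 and pools of the 2 strains with an r of 0.936 to 0.964, where probe sets are not independent replicates.

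Of the named genes higher in the pools labelled TM1, wls, a carrier of Wnt proteins to the cell surface, differed most. Its values were 7.06, 6.33, 6.37 and 6.65 in the pools labelled TM1 (F1, F2, M1, M2) and 2.54, 2.91, 2.73 and 2.76 in those labelled Gaighatta, a difference of 3.87 (SE 0.28, adjusted p = 1.55e-07). The pools labelled Gaighatta were at the level of the GFP probe sets in arrays without GFP, so no fold is given. The groups lay far apart, but the other 2 probe sets of wls did not show this, with differences of -0.53 (adjusted p = 0.217) and -0.20 (adjusted p = 0.301). With the 8 arrays of the pair alone the first of these 2 was called lower (adjusted p = 0.0414), so the probe sets of wls disagreed in direction. The secreted glycoprotein gene lgals3bp.1 was at 8.82, 9.22, 8.93 and 8.58 against 4.92, 5.66, 5.58 and 4.92, a difference of 3.62 (SE 0.22, adjusted p = 2.88e-08). Similar gaps of more than 4-fold in 1 probe set were seen for erbin, a scaffold of cell junctions (2.35, adjusted p = 4.36e-08), ash1l, a histone methyltransferase (2.31, adjusted p = 4.29e-05), nob1, a factor of ribosome maturation (2.29, adjusted p = 1.66e-05), scamp5a, a secretory vesicle protein (2.22, adjusted p = 0.00145), and septin8b, a septin (2.11, adjusted p = 2.88e-08). For erbin and nob1 a second probe set had differences of -0.30 (adjusted p = 0.0691) and -0.15 (adjusted p = 0.319). The long noncoding RNA gene linc-epb41l4a was higher by 2.64 (adjusted p = 7.91e-06), with 9.38 as its lowest value in the pools labelled TM1 and 7.90 as its highest in the others. The remaining 4 of the 12 genes with the largest differences in this direction were pde6ha, krt97, krt91 and nfil3-5, described with their groups.

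Of the named genes lower in the pools labelled TM1, ciarta, a repressor of the clock described below, and npy8br, a receptor of neuropeptide Y, differed most. The values of npy8br were 3.40, 3.62, 4.01 and 3.68 in the pools labelled TM1 and 6.02, 7.14, 6.50 and 6.31 in those labelled Gaighatta, a difference of -2.81 (SE 0.19, adjusted p = 4.36e-08). klhl41b, known from muscle fibers, was at 4.43, 3.65, 4.53 and 3.47 against at least 6.33 (-2.74, SE 0.24, adjusted p = 8.69e-07). Pools without overlap were a condition for choosing both genes. Several others in this direction were called in more than 1 probe set. The transcriptional coactivator gene ppargc1b, which acts on mitochondrial and lipid genes, differed by -2.34 and -1.08 (adjusted p = 0.000143 and 0.000806). The lysosomal enzyme gene aga differed by -2.14 and -0.36 (adjusted p = 8.48e-07 and 0.0198), the second of which was lost without TM1 M2 or Gaighatta M2 (highest adjusted p = 0.0623). The mitochondrial carrier gene slc25a14 differed by -2.41 and -2.38 in 2 overlapping probe sets (adjusted p = 0.000478 and 0.000198), while another had 0.31 (adjusted p = 0.052). Single probe sets of ppdpfa (-1.94, adjusted p = 8.48e-07), ccdc39, which is needed to assemble motile cilia (-1.93, adjusted p = 2.36e-07), and chp1, a calcium-binding protein (-1.93, adjusted p = 7.06e-06), completed the group. The 3 probe sets of cldng, a claudin of tight junctions, disagreed in direction: they differed by -2.50 (adjusted p = 0.000566), 0.05 (adjusted p = 0.817) and 1.45 (adjusted p = 0.0499), and the last call was lost in 12 of the 16 fits that left out 1 pool, with an adjusted p of up to 0.167 without TM1 M1.

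**Figure D1:**
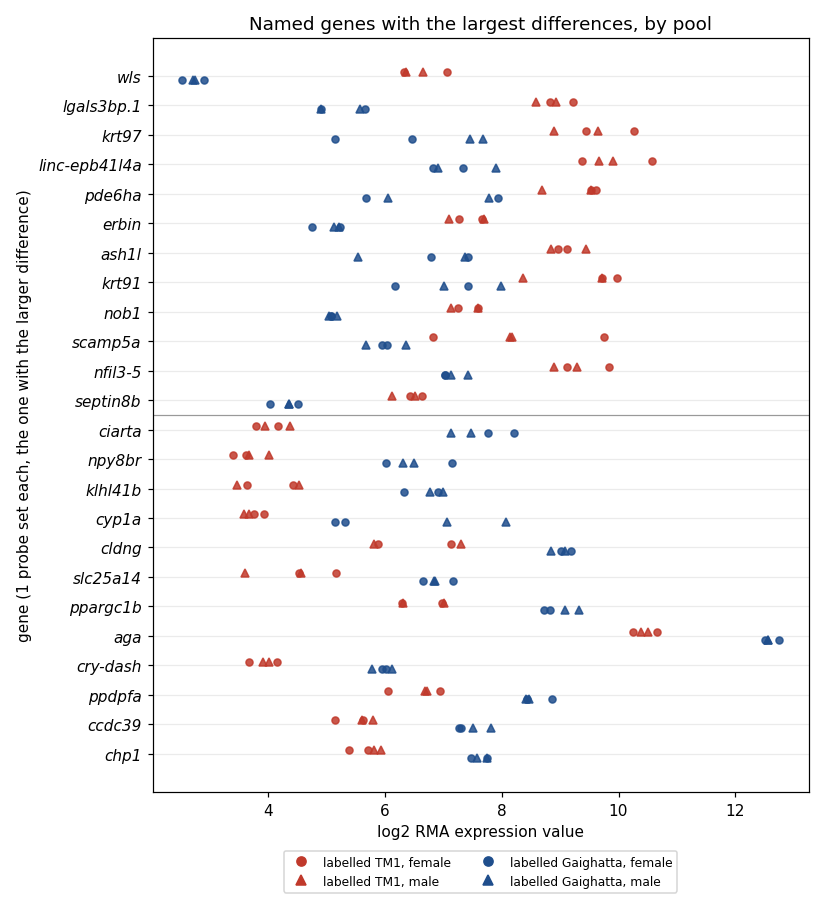
Log2 RMA value of each pool (points; circles female, triangles male) for the 12 named genes with the largest differences in each direction, 1 probe set per gene, with pools labelled TM1 in red and pools labelled Gaighatta in blue. The 24 genes were chosen among those whose pools did not overlap, so the lack of overlap was set by the choice. The gap is widest for wls, at 2.54 to 2.91 against 6.33 to 7.06.

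The 2 largest differences of all belonged to probe sets for which the platform annotation lists no gene. The first was at 8.30, 8.48, 9.83 and 9.85 in the pools labelled TM1 and 4.30, 4.11, 3.73 and 4.64 in those labelled Gaighatta, a difference of 4.92 (SE 0.30, adjusted p = 2.88e-08). The second was at 7.59, 6.59, 5.12 and 6.99 against 2.57 to 2.79 (3.90, adjusted p = 8.91e-07), and the means of the pools labelled SH and Nadia, at 2.76 and 2.68, lay with the pools labelled Gaighatta. In the opposite direction the widest gaps among unnamed probe sets were -3.18 (adjusted p = 3.42e-05) and -2.93, the latter with 4.93 to 5.27 against 7.87 to 8.18 and the smallest adjusted p of all, 2.46e-11. The groups did not overlap for any of these 4.

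Repressors of the circadian clock were lower in the pools labelled TM1. Of 8 measured repressor genes, 4 were called lower, 1 was called higher and 3 did not pass (62.5% called, against 20.2% of all genes). The repressor, cryptochrome and activator lists were chosen with earlier results of these data known. Their members also belong to 1 coupled loop, so their shares are descriptions and no independent test of an excess. The median difference was -0.90. The pools of the 2 strains did not overlap for any of the 8, while over all probe sets 25.1% had no overlap. ciarta, a repressor of Clock and Bmal, was at 4.18, 3.80, 4.38 and 3.96 in the pools labelled TM1 and 8.21, 7.77, 7.14 and 7.48 in those labelled Gaighatta. Its difference of -3.57 (SE 0.59, adjusted p = 0.000587) was an 11.8-fold lower level. bhlhe41, a repressor that binds the same DNA element as Clock, was at 8.43, 8.23, 8.18 and 8.47 against 10.19, 9.61, 9.46 and 9.71 (-1.42, SE 0.26, adjusted p = 0.00137). per2, a Period gene that light induces in zebrafish, was at 8.04, 8.19, 7.60 and 8.05 against 9.65, 9.13, 9.26 and 9.28 (-1.36, SE 0.30, adjusted p = 0.00429). Both sexes had the same direction for these 3 genes. A second probe set of per2 differed by -0.95 (adjusted p = 0.0205), a call that was lost without TM1 M2 or Gaighatta F1 (highest adjusted p = 0.0584). Both probe sets of nr1d2b, a Rev-erb receptor, were lower, by 1.24 and 1.13 on the log2 scale (differences of -1.24 and -1.13, adjusted p = 6.48e-05 and 0.00187). bhlhe40, nr1d2a and nfil3-6 had differences of -0.33, -0.55 and -0.54 that did not pass (adjusted p = 0.0546, 0.198 and 0.134). With the 8 arrays of the pair alone nr1d2a and nfil3-6 were called (adjusted p = 0.0384 and 0.031). nfil3-5 went the other way: this relative of the repressor E4bp4 was at 9.13, 9.84, 8.89 and 9.28 in the pools labelled TM1 and 7.04, 7.04, 7.13 and 7.42 in the others, 2.13 higher (SE 0.32, adjusted p = 0.000222).

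Cryptochromes and photolyases, which are related proteins that repress the clock or repair DNA damaged by ultraviolet light, were mostly lower as well. Of 9 measured genes, 6 were called lower and 2 higher, and 1 did not pass (88.9% called, against 20.2% of all genes). cry-dash, a photolyase homolog, was at 3.68, 4.16, 3.92 and 4.02 in 1 probe set against 5.96, 6.03, 5.78 and 6.13 in the pools labelled Gaighatta (-2.03, SE 0.31, adjusted p = 0.000269). Its second probe set differed by -1.16 (adjusted p = 0.000319). cry2 was lower in both of its probe sets, by 1.28 and 0.77 on the log2 scale (differences of -1.28 and -0.77, adjusted p = 0.00135 and 0.0138), the second of which was lost without Gaighatta F1 (adjusted p = 0.051). cry1b (-1.06, adjusted p = 0.00471), cry1a (-0.65, adjusted p = 0.00243), cry5, the zebrafish photolyase of the 6-4 type (-0.64, adjusted p = 0.0153, and -0.24, adjusted p = 0.166, in its second probe set), and cpdp, the photolyase of pyrimidine dimers (-0.47, adjusted p = 0.0383), made up the rest of the 6. cry3b, in contrast, was at 6.26, 6.73, 5.97 and 6.50 against 5.20, 5.20, 5.53 and 5.27, 1.07 higher (SE 0.19, adjusted p = 0.00107), and cry3a was 0.51 higher (adjusted p = 0.0283). cry4 had a difference of 0.30 (adjusted p = 0.221). The calls of cpdp and cry3a were each lost in 5 of the 16 fits that left out 1 pool, with adjusted p of up to 0.12 (without TM1 M1) and 0.0806 (without Gaighatta F1).

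Of 6 activators and output factors of the loop, 3 were called higher and 2 lower (83.3%, against 20.2% of all genes). rorcb, a Ror receptor, was at 6.86, 7.40, 6.97 and 7.14 in the pools labelled TM1 and 5.02, 4.95, 5.07 and 5.51 in those labelled Gaighatta (1.96, SE 0.28, adjusted p = 0.000187). clockb was at 5.54, 6.01, 5.88 and 5.50 against 4.58, 4.92, 4.95 and 4.50 (0.99, adjusted p = 0.0004), and bmal1a was higher by 0.83 (adjusted p = 0.00107). bmal1b had 0.25 (adjusted p = 0.321). The PAR bZIP factors tefa and tefb, which carry the rhythm to output genes and in zebrafish drive light-induced DNA repair genes, were lower, tefa by 0.80 and 0.94 on the log2 scale in 2 probe sets (differences of -0.80 and -0.94, adjusted p = 0.000284 and 0.000563) and tefb with a difference of -0.87 (adjusted p = 0.00159). ddb2, a sensor of ultraviolet damage, was at 5.22 to 5.38 in the pools labelled TM1 and 6.47 to 6.71 in those labelled Gaighatta (-1.29, adjusted p = 0.00171). The counts in these 3 lists were the same under each other scaling of the arrays. The hour at which each pool was sampled is not given in the labels.

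In the pools with the other 2 strain labels these genes varied more between pools. ciarta ranged from 5.47 to 7.92 in the pools labelled SH and from 4.38 to 7.79 in those labelled Nadia, where M2 alone was above 5.11. per2 was at 9.36 in the same pool and at 7.82 to 8.41 in the other 3. rorcb was at 4.97 in that pool and at 6.11 to 6.65 in the other 3. The single pool thus lay with the pools labelled Gaighatta for all 3 genes, and the other pools labelled Nadia lay nearer to those labelled TM1.

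**Figure D2:**
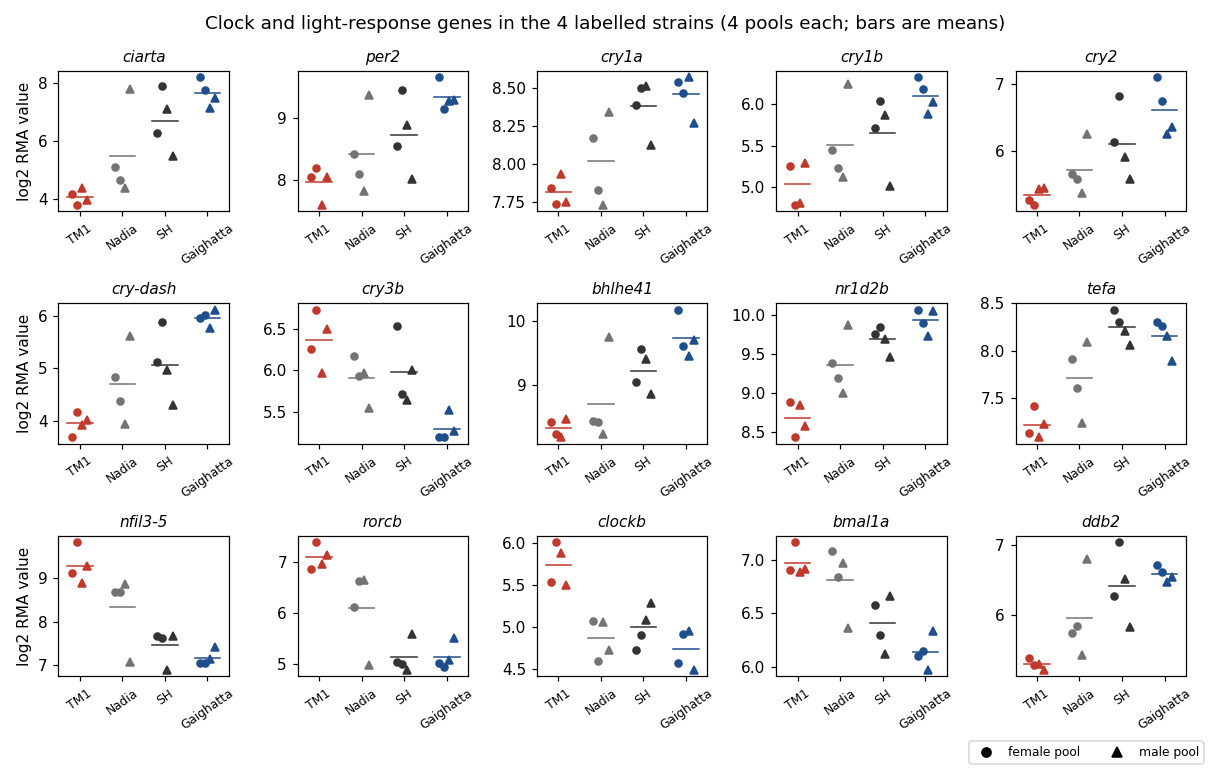
Log2 RMA values of 15 clock and light-response genes in every pool of the 4 labelled strains (points; circles female, triangles male; horizontal bars are means of 4 pools). Each panel shows the probe set of its gene with the larger difference. The pools labelled TM1 and Gaighatta do not overlap in any panel, but the called genes cry5 and cry3a, whose pools overlapped, are not shown. Nadia M2 (7.79 for ciarta, 9.36 for per2) stands apart from the other pools labelled Nadia in most panels.

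cyp1a, the monooxygenase that the aryl hydrocarbon receptor induces in response to planar aromatic compounds, was lower in all pools labelled TM1. It was at 3.77, 3.94, 3.68 and 3.59 there and at 5.32, 5.15, 7.06 and 8.07 in the pools labelled Gaighatta, a difference of -2.66 (SE 0.53, adjusted p = 0.00228). The 2 male pools labelled Gaighatta lay above the 2 female pools, and the difference was -1.38 in females (adjusted p = 0.13) and -3.93 in males (adjusted p = 0.00055), but the difference between the sexes was not called (adjusted p = 0.41). In the pools labelled SH and Nadia cyp1a was at 6.45 to 8.53. It was the 1 called gene of 4 in its response group (25%, against 20.2% of all genes), where the receptor gene ahr2 had -0.25 (adjusted p = 0.0732).

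Genes of antigen processing, interferon response and microglia were called higher in the pools labelled TM1 more often than lower. Of 8 genes of antigen processing, 5 were called higher and 1 lower (75% called, against 20.2% of all genes). Of 10 interferon and innate immune genes 5 were higher and none lower (50%). Of 23 leukocyte markers, mostly of microglia, 8 were called and all 8 were higher (34.8%). The medians of the 3 lists were 0.78, 0.54 and 0.47. psme1, a subunit of the proteasome activator that interferon induces, was at 6.69, 6.66, 7.28 and 7.35 in the pools labelled TM1 and 5.84, 5.74, 5.84 and 6.25 in those labelled Gaighatta (1.08, SE 0.15, adjusted p = 0.000169). Its partner psme2 (0.69, adjusted p = 0.00357) and the immunoproteasome subunits psmb9a, psmb12 and psmb8a (0.90, 0.90 and 0.87, adjusted p = 0.000794, 0.00236 and 0.00637) were also higher, while tapbp.1, a loader of class I molecules, was lower (-0.43, adjusted p = 0.0283). The class I light chain b2m was at 9.59, 9.51, 10.21 and 10.25 against 9.19, 9.25, 8.85 and 9.20 (0.77, adjusted p = 0.00647). The invariant chains of class II, cd74b and cd74a, were higher by 0.94 and 0.61 (adjusted p = 0.00233 and 0.00469), but mhc1zba and mhc2daa, which encode antigen-presenting chains, were lower (-0.72 and -0.69, adjusted p = 0.0379 and 0.0335). The calls of tapbp.1, mhc1zba and mhc2daa were lost in 4, 5 and 4 of the 16 fits without 1 pool, at most at adjusted p of 0.0961 (without Gaighatta F1), 0.111 (without TM1 F2) and 0.103 (without Gaighatta F2).

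The interferon-induced genes were highest in the 2 male pools labelled TM1. isg15, a ubiquitin-like modifier, was at 4.84 and 5.32 in the female and 7.20 and 6.08 in the male pools labelled TM1, and at 3.85 to 4.12 in the pools labelled Gaighatta (1.89, SE 0.34, adjusted p = 0.000959). The interferon regulatory factor irf1b was at 5.65, 5.98, 7.73 and 7.49 against 5.27, 5.15, 5.02 and 4.93 (1.62, SE 0.35, adjusted p = 0.00414). Every pool labelled TM1 was above every pool labelled Gaighatta for both genes. nfkb2 (0.51, adjusted p = 0.00769), stat3 (0.84, adjusted p = 0.0235) and pycard, the adaptor of inflammasomes (0.76, adjusted p = 0.0383), were the other 3 called of the 10. stat3 and pycard were lost in 4 and 6 of the fits without 1 pool, with an adjusted p of up to 0.0805 and 0.12, both without TM1 M1.

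Of the 8 called leukocyte markers, lgals3bp.1 had the largest difference. It was highest in TM1 F2, with M2 the lowest of the pools labelled TM1, while c1qc and ctss2.2 were highest in the 2 male pools. c1qc, a complement subunit made by microglia, was at 5.52, 5.73, 6.60 and 6.48 in the pools labelled TM1 and 5.23, 5.32, 4.95 and 5.14 in those labelled Gaighatta (0.92, SE 0.19, adjusted p = 0.00297). ctss2.2, a cathepsin of antigen-presenting cells, was at 6.00, 6.24, 7.43 and 7.48 against 5.57, 5.17, 4.87 and 5.43 (1.53, adjusted p = 0.00111), and its second probe set had 1.02 (adjusted p = 0.00572). spi1b, the myeloid transcription factor Pu.1, was called in 1 of 2 probe sets (0.62, adjusted p = 0.00405, and 0.55, adjusted p = 0.0685). aif1l was higher by 1.81 (adjusted p = 0.0084), with Gaighatta M1 at 4.29 and the other pools labelled Gaighatta at 7.13 to 7.20. Without that pool its difference was 1.09 (adjusted p = 1.6e-06). The lysosomal gene laptm5 was higher by 0.55 (adjusted p = 0.0444), a call lost in 11 of the 16 fits without 1 pool (up to 0.123 without Gaighatta M2), and had 0.32 without TM1 M1. The mean of the 23 markers was 6.07 and 6.16 in the female and 6.87 and 6.60 in the male pools labelled TM1, and 5.61 to 5.95 in the pools labelled Gaighatta. In pooled tissue, more cells of a type and more RNA per cell cannot be told apart.

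Read within each sex, the immune calls came mostly from the male pools. In males, 15 of the 23 leukocyte markers, 8 of the 10 interferon genes and 5 of the 8 antigen processing genes were called higher, and in females 1, 1 and 1. Called lower were 1, 0 and 0 in males and 1, 0 and 1 in females. The split by sex was chosen after the data had been seen. The median difference of the leukocyte markers was 1.00 in males and 0.01 in females. For the antigen processing genes it was 1.05 in males and 0.43 in females, and for the interferon genes 0.92 and 0.29. Over all probe sets, the contrasts within each sex of the strain by sex fit called 495 (6.25%) in females and 707 (8.92%) in males. Separate fits on the female or the male pools only gave the opposite order, with 606 called in females and 321 in males. Whether the strain difference itself differed between the sexes was tested probe set by probe set, and it was called for 8 of 7922 (0.101%), with 421 at an unadjusted p under 0.05. These were gbp1, an interferon-induced GTPase (male minus female difference 1.57, adjusted p = 0.00565), irf1b (2.03, adjusted p = 0.0151), ctss2.1, a cathepsin (1.66, adjusted p = 0.0466), the complement gene c4b (1.55, adjusted p = 0.0479), the annexin gene anxa3b (1.55, adjusted p = 0.00484), si:dkey-33i11.9 (2.44, adjusted p = 0.0463) and 2 unnamed probe sets (5.50 and 3.47, adjusted p = 0.0094 and 0.0158). The first of these 2 was at 10.99 and 10.59 in the male pools labelled TM1 and at 4.66 to 6.13 in the other 6 pools. gbp1 was at 6.85 and 6.54 in those male pools and at 4.96 to 5.32 in the other 6. In all 8 probe sets the 2 male pools labelled TM1 were the highest of the 8 pools. The fits that left out 1 pool called from 0 (without TM1 F1 or Gaighatta F2, with 402 and 308 at an unadjusted p under 0.05) to 41 (without TM1 M2). Over both sexes, the 1654 called probe sets all had the same sign in females and males, which a call on these same pools favors by itself. In the separate contrasts 267 probe sets were called in females and in males, 266 of them in the same direction.

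**Figure D3:**
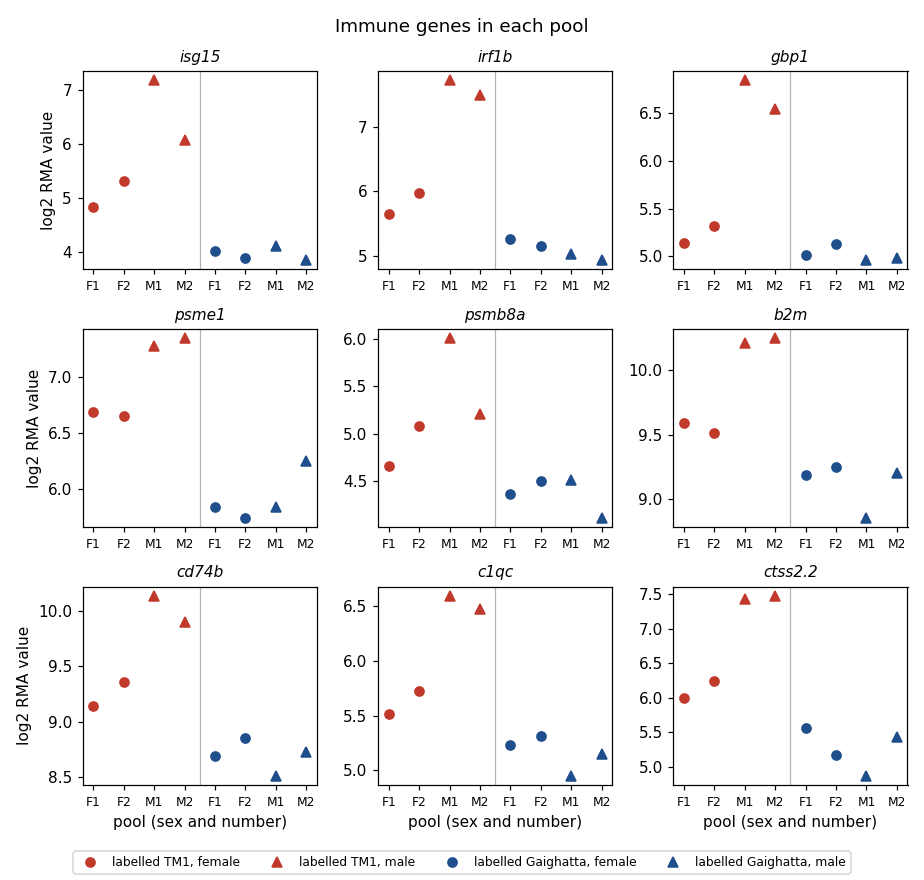
Log2 RMA values of 9 immune genes in each pool (points; circles female, triangles male), with pools labelled TM1 in red on the left of each panel and pools labelled Gaighatta in blue on the right. M1 and M2 labelled TM1 are the highest of the 8 pools in every panel, for example 7.73 and 7.49 for irf1b against 4.93 to 5.98 in the other 6. The 9 genes are a selection, so this holds for the genes shown and not for all called immune genes. The leukocyte marker with the largest difference, which was highest in a female pool labelled TM1, is not shown. Called immune genes that were lower in the pools labelled TM1 are not shown either.

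**Figure D4:**
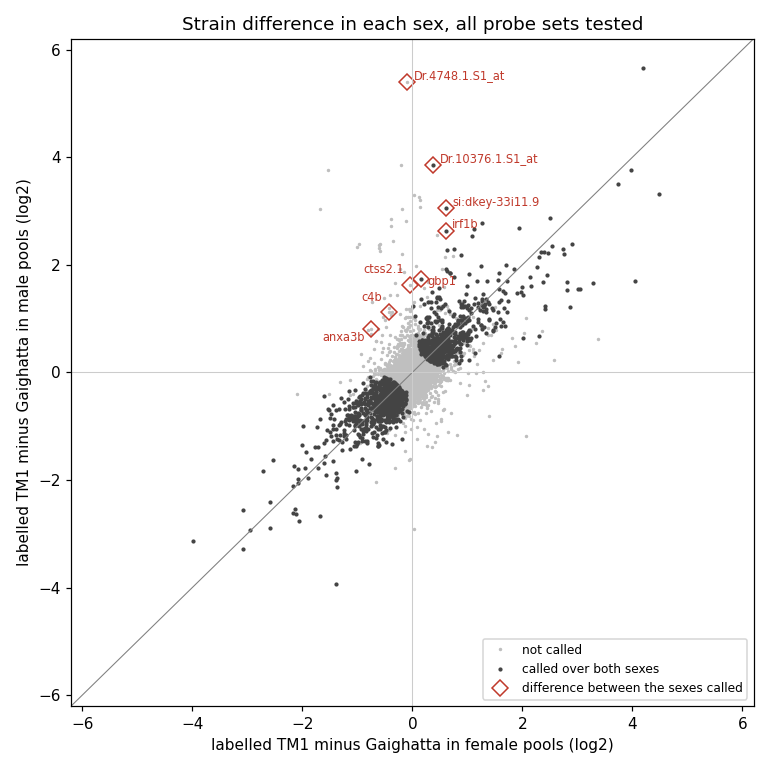
Difference between the strains (log2, labelled TM1 minus labelled Gaighatta) in female pools on the horizontal axis and male pools on the vertical axis, for all 7922 probe sets, with the 1654 called over both sexes in dark gray and the 8 whose difference differed between the sexes as red diamonds. The called probe sets lie along the diagonal line of equal differences, which a call over both sexes favors by itself, and the 8 diamonds lie above it.

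Markers of tissues that border the brain also differed between the strains. Of 30 epithelial markers, 10 were called higher in the pools labelled TM1 and none lower (33.3%, against 20.2% of all genes), with a median of 0.80. The keratin gene krt97 was at 10.27, 9.45, 8.89 and 9.65 against 6.47, 5.15, 7.68 and 7.46 (2.87, SE 0.71, adjusted p = 0.00945). krt91 was higher by 2.30 and 2.28 in 2 overlapping probe sets (adjusted p = 0.00701 and 0.00503), krt5 by 2.04 (adjusted p = 0.0106), and icn2, a calcium-binding protein, by 1.82 and 1.79 in 2 overlapping probe sets (adjusted p = 0.00358 and 0.00392). The mean of the 30 markers was at least 6.66 in the pools labelled TM1 and at most 6.55 in those labelled Gaighatta, so the groups did not overlap, by a small gap. It also varied widely between pools of the same strain, at 6.16 to 7.17 in those labelled SH and 6.28 to 8.29 in those labelled Nadia. krt4 and krt15 had differences of 1.54 and 1.56 that did not pass (adjusted p = 0.173 and 0.0943, but 0.0148 and 0.0356 with the 8 arrays alone). Among the 10 were also pfn1 and s100a10b (1.26 each, adjusted p = 0.000394 and 0.00145), which are made by many cell types. The other 4 of the 10 were icn, agr2, anxa1a and oclna, at 1.21 to 1.33, and each was lost in 1 to 6 of the fits without 1 pool, with agr2 lost without TM1 F1 (0.0525) and the others at up to 0.102. Keratins are made by skin and other lining tissue rather than by neurons or glia, and the part of such tissue in the other differences was not tested.

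Photoreceptor genes followed a similar pattern. Of 13 markers of eye and photoreceptors, 5 were called higher and 1 lower (46.2%, against 20.2% of all genes), and the median was 0.76. pde6ha, a subunit of the cone phosphodiesterase, was at 9.52, 9.62, 8.70 and 9.53 in the pools labelled TM1 and 5.68, 7.94, 6.06 and 7.78 in those labelled Gaighatta (2.48, SE 0.63, adjusted p = 0.0114), and its second probe set had 2.45 (adjusted p = 0.00701). The cone genes opn1mw2 (1.12, adjusted p = 0.0379), gnb3b (0.81, adjusted p = 0.0444) and opn1sw2 (0.75, adjusted p = 0.0201) and the guanylate cyclase gene gucy2f (0.62, adjusted p = 0.0156) were higher, and rpe65a, the isomerase of the visual cycle, was lower in both probe sets (-1.01 and -1.10, adjusted p = 0.0373 and 0.0204). All of these but pde6ha were lost in some of the 16 fits without 1 pool, from 1 fit for gucy2f (adjusted p = 0.0509 without Gaighatta F1) to 9 for gnb3b (adjusted p up to 0.103 without TM1 M2). The mean of the 13 markers was 5.26 to 5.75 in the pools labelled TM1 and 4.31 to 5.40 in those labelled Gaighatta, which overlapped. None of 5 pineal markers was called.

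Muscle transcripts differed between pools more than between strains. The mean of 27 muscle markers was 7.64, 5.96, 7.90 and 6.32 in the pools labelled TM1 and 8.38, 5.86, 5.26 and 5.90 in those labelled Gaighatta, and actc1b, a muscle actin, spanned 6.69 to 12.18 among the latter. Only klhl41b and casq2 (-0.29, adjusted p = 0.0302) were called lower and atp2a1 higher (1.56, adjusted p = 0.0447), although 22 of the 27 differences were above 0. The share called was 11.1%, against 20.2% of all genes. casq2 and atp2a1 were lost in 4 and 8 of the fits without 1 pool, with adjusted p of up to 0.0876 (without Gaighatta F1) and 0.125 (without TM1 F1). None of 4 pituitary hormone genes was called. gh1 and prl were at 4.51 to 6.01 and 3.00 to 3.44 in these 8 pools.

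Some markers of connective tissue and vessels were lower in the pools labelled TM1. Of 17 markers of meninges and connective tissue, 5 were called lower and none higher (29.4%, against 20.2% of all genes). The other 12 did not pass, and 8 of the 17 differences were above 0 (median -0.17). tgfbi, a matrix protein, was at 4.22, 4.50, 4.21 and 4.14 against 5.26, 5.28, 5.20 and 4.98 (-0.91, SE 0.16, adjusted p = 0.000817), and fn1b, a fibronectin, differed by -0.89 (adjusted p = 0.000478). sparc (-0.72, adjusted p = 0.00357), bgnb (-0.65, adjusted p = 0.000773) and thbs4b (-0.59, adjusted p = 0.0189, lost without TM1 F2 or TM1 M2 at up to 0.055) were the other 3. Of 5 endothelial markers, 2 were lower and 3 did not pass (40% called). cldn5a, the claudin of the blood-brain barrier, was at 2.71 to 2.91 against 3.12 to 4.44 (-1.17, adjusted p = 0.000774). Its pools labelled TM1 were at the level of the GFP probe sets in arrays without GFP, so the size of this difference is uncertain. kdrl, a receptor for Vegf, differed by -0.49 (adjusted p = 0.0171), a call lost without TM1 F1 or Gaighatta F1 (up to 0.0528). Of 11 genes of cilia (18.2% called), ccdc39 and ift52 (-0.51, adjusted p = 0.00212) were lower.

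Some genes of neurons and synapses were lower by small amounts. Of 21 genes of synaptic vesicles and release, 7 were called lower and 2 higher (42.9%, against 20.2% of all genes), with a median of -0.20. syt11a, a synaptotagmin, was at 10.25, 9.88, 10.42 and 10.01 in the pools labelled TM1 and 10.79, 10.86, 10.87 and 10.90 in those labelled Gaighatta (-0.71, SE 0.10, adjusted p = 0.000205), but its second probe set had -0.10 (adjusted p = 0.566). synprb, a vesicle membrane protein (-0.90, adjusted p = 0.00346), and stxbp3, a partner of syntaxins (-0.68, adjusted p = 0.000219), were lower in every pool. sypb, a synaptophysin, differed by -0.44 in 1 probe set (adjusted p = 0.0198) and -0.22 in the other (adjusted p = 0.432), and the call was lost without TM1 M1 or Gaighatta M1 (up to 0.06). Of the 2 higher, scamp5a was at 9.75, 6.83, 8.18 and 8.14 against 5.68 to 6.36, and stx8 (0.35, adjusted p = 0.0475) was lost in 15 of the 16 fits without 1 pool (up to 0.129 without TM1 M2). The remaining 3 lower, syt1a, nsfa and snap25a, had differences of -0.48, -0.32 and -0.27 and were lost in 6, 11 and 5 of these fits. The mean of 16 neuron markers overlapped between the strains (9.32 to 9.53 and 9.49 to 9.61). Of the 16, 5 were lower, 1 was higher and 10 did not pass (37.5% called), with a median of -0.10. They were tubb5 (-0.62, adjusted p = 0.00142), syt1a (-0.48), inab (-0.45), uchl1 (-0.31) and snap25a (-0.27) against maptb, the microtubule-associated protein tau, at 9.70 to 10.02 in the pools labelled Gaighatta and 10.44 to 10.63 in those labelled TM1 (0.65, adjusted p = 0.000108). The calls of inab and uchl1 were each lost in 6 of the 16 fits without 1 pool. Another probe set of tubb5 had -0.31, a call lost in 7 of these fits. After the quantile normalization was repeated, 4 of the 21 synaptic genes and 1 of the 16 neuron markers (tubb5) were called lower. The other probe set of tubb5 then had -0.26 (adjusted p = 0.0689), and snap25a had -0.08 (adjusted p = 0.538).

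Among glial genes the directions were mixed. sox9a, a transcription factor of radial glia and cartilage, was at 6.43, 6.13, 5.54 and 7.12 in the pools labelled TM1 and 4.59, 4.57, 4.42 and 4.23 in those labelled Gaighatta (1.85, SE 0.28, adjusted p = 0.000278), and its paralog sox9b was higher by 0.58 (adjusted p = 0.00516). glula, the glutamine synthetase, was at 10.58 to 11.16 against 11.56 to 11.67 (-0.74, adjusted p = 0.00269), and slc1a2b, the glial glutamate transporter, at 11.59 to 11.99 against 12.17 to 12.22 (-0.35, adjusted p = 0.012), which had -0.19 after repeated quantile normalization (adjusted p = 0.124). cyp19a1b, the brain aromatase, differed by -0.42 (adjusted p = 0.0452), a call that was lost after repeated quantile normalization (adjusted p = 0.0819) and in 11 of the 16 fits without 1 pool, and its other 2 probe sets had -0.05 and -0.03. These were the 5 called of 18 markers of radial glia and astroglia (27.8%, against 20.2% of all genes). gfap, the glial filament, had 0.19 (adjusted p = 0.327) and fabp7a 0.12 (adjusted p = 0.49). Of 3 genes listed under myelin, cldnk was lower by 0.39 on the log2 scale (difference of -0.39, adjusted p = 0.00932). gpm6ab had -0.26 (adjusted p = 0.0421), while mbpb, a myelin basic protein, had -0.03 (adjusted p = 0.887). The call of gpm6ab was lost in 9 of the 16 fits without 1 pool (up to 0.0972 without Gaighatta F1) and after repeated quantile normalization, where it had -0.16 (adjusted p = 0.144).

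Of 13 genes of GABA and glutamate, 2 were called higher and 2 lower (30.8%, against 20.2% of all genes), the latter being glula and slc1a2b. abat, which degrades GABA, was at 8.66, 9.12, 9.16 and 9.74 in the pools labelled TM1 and 7.99, 8.27, 8.48 and 8.25 in those labelled Gaighatta (0.92, SE 0.18, adjusted p = 0.00208), and the kainate receptor gene grik1a was higher by 0.39 (adjusted p = 0.0244, lost in 4 fits without 1 pool, up to 0.0728 without TM1 M2). gad1b, which makes GABA, had -0.23 (adjusted p = 0.0897). Of 16 neuropeptide and receptor genes, npy8br and the opioid receptor gene oprd1a (-0.91, adjusted p = 0.000917) were lower, whereas npy itself had 0.15 (adjusted p = 0.338). Of 8 monoamine genes only the adrenergic receptor gene adra2b was called, 1.13 and 0.47 higher in its 2 probe sets (adjusted p = 4.19e-05 and 0.0128). Of 5 genes of the thyroid pathway, 1 was lower and 1 higher (40%). thrb, a receptor of thyroid hormone, was at 5.12 to 5.74 against 6.14 to 6.45 (-0.95, adjusted p = 0.00617), and the deiodinase gene dio1 was higher by 0.81 (adjusted p = 0.00143). dio2 was at 7.11 and 7.30 in females and 7.72 and 8.13 in males labelled TM1, and at 6.09 and 6.31 in females and 8.56 and 8.14 in males labelled Gaighatta, with a difference of 1.00 in females (adjusted p = 0.014) and -0.43 in males (adjusted p = 0.2). The difference between the sexes was not called (adjusted p = 0.14).

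Of 59 genes of the respiratory chain and ATP synthase, 6 were called higher and 2 lower (13.6%, against 20.2% of all genes). Differences above 0 were found for 46, and the median was 0.17. atp5mea, a subunit of ATP synthase, was at 10.23, 10.34, 9.84 and 10.23 in the pools labelled TM1 and 7.87, 7.94, 8.24 and 8.46 in those labelled Gaighatta (2.03, SE 0.15, adjusted p = 2.09e-07), and cox4i1l, a subunit of cytochrome c oxidase, was higher by 1.09 (adjusted p = 0.000647). The other 6 calls were of 0.28 to 0.35 in size: atp5pd, ndufaf5, ndufa3 and uqcrh were higher and ndufa4b and uqcrc2a lower, and each was lost in at least 1 of the 16 fits without 1 pool. Repeated quantile normalization gave 10 higher and 1 lower. Of 9 genes of cholesterol synthesis, 3 were lower and none higher (33.3% called): msmo1 (-0.98, adjusted p = 0.0191), acat2 (-0.40, adjusted p = 0.0478) and mvk (-0.28, adjusted p = 0.0378). After median centring and repeated quantile normalization 1 and 2 were called. The calls of msmo1, acat2 and mvk were lost in 3, 12 and 5 of the 16 fits without 1 pool. The highest adjusted p were 0.0622 and 0.108 without Gaighatta M1 for msmo1 and mvk, and 0.139 without TM1 M1 for acat2, which then had -0.25.

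selenop, the carrier of selenium to the brain, was at 9.98, 9.87, 9.64 and 9.89 in the pools labelled TM1 and 11.07, 11.07, 11.03 and 10.44 in those labelled Gaighatta (-1.06, SE 0.16, adjusted p = 0.000299). Its list of 26 selenoprotein and glutathione genes (7.69% called) held 1 other call, mgst3a, a glutathione transferase, which was 0.93 higher (adjusted p = 0.0085). urod, an enzyme of heme synthesis, was 1.21 higher (adjusted p = 0.000187), and the hemoglobin gene hbaa1, a marker of red blood cells, was lower by 0.57 on the log2 scale (difference of -0.57, adjusted p = 0.0108), while hbba2 had -0.18 (adjusted p = 0.894). Red blood cell markers in all counted 1 higher and 1 lower of 10 (20%, near the 20.2% of all genes).

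Of 21 DNA repair genes, 5 were higher and 3 lower (38.1%, against 20.2% of all genes): nbn, a sensor of strand breaks (0.59, adjusted p = 0.000154), rad23b (0.59, adjusted p = 0.00737, and 0.02 in a second probe set), rad23ab (0.59, adjusted p = 0.00589), parp3 (0.42, adjusted p = 0.0147) and ercc3 (0.38, adjusted p = 0.0208) against ddb2, xrcc1, a scaffold of break repair (-0.70, adjusted p = 0.00158), and neil1, a glycosylase (-0.53, adjusted p = 0.00128). ercc3 was lost in 4 fits without 1 pool (up to 0.0626 without Gaighatta M2). Of 66 chromatin regulators, 3 were higher and 9 lower (18.2%, near the share of all genes). The widest differences were those of hdac9b, a histone deacetylase (-1.23, adjusted p = 0.0137), and brms1, a member of deacetylase complexes (0.82, adjusted p = 0.000572). Of 45 chaperone genes, 7 were higher and 5 lower (26.7%). hspa8b was at 9.29, 9.30, 8.79 and 9.11 against 7.51, 7.65, 7.92 and 7.74 (1.42, SE 0.13, adjusted p = 1.33e-06), and hsf2, a heat shock factor, differed by -1.11 (adjusted p = 0.000372). All 14 measured hox genes had differences above 0, with a median of 0.29, but only hoxc4a (0.57, adjusted p = 0.0346) and hoxb6a (0.37, adjusted p = 0.0365) were called (14.3%). These 2 calls were lost in 6 and 5 of the fits without 1 pool, at up to 0.0954 and 0.111 without Gaighatta F1. Among 37 genes of axon guidance and adhesion, 3 were higher and 5 lower (21.6%, near the share of all genes). The higher were efnb3b (0.85), ntn1a (0.71) and sema4e (0.60), and among the lower was l1cama (-0.76, adjusted p = 0.0174, lost without TM1 M1 or Gaighatta F2 at up to 0.0586). Among 18 ion channel genes, 4 were higher, led by the sodium channel subunit gene scn4bb (1.37, adjusted p = 0.00483), and 2 lower (33.3%). Of 20 immediate early genes, which neurons switch on when they fire, only nr4a2b was called (5%), with -0.86 (adjusted p = 0.0002). Of 39 translation factors, 3 were higher, led by eif3eb (0.93, adjusted p = 1.42e-05), and 4 lower (17.9%). Of 18 genes of the constitutive proteasome and its assembly, the 3 called (16.7%) were psmd10, psmg2 and psmg1, higher by 0.51, 0.49 and 0.45 (adjusted p = 0.00111, 0.000658 and 0.000829). Of 26 cell death genes, casp9, bada and mcl1a were higher (0.47, 0.39 and 0.36) and mdm4 lower (-0.39), or 15.4% called. Of 19 Wnt pathway genes 1 was called (5.26%), sfrp1a, a secreted regulator of Wnt signals (0.51, adjusted p = 0.00975), and wls counted there as not called, by its brightest probe set. Of 17 entries matched as ribosomal proteins only rps6kal, a kinase and no ribosomal protein, was called (5.88%), with -0.36 (adjusted p = 0.0233). Matching by the start of a symbol also placed trpt1 and trpc4apb, which are not channels, among the ion channels. It placed katnal1, a katanin, among the chromatin regulators. None of these was called.

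**Figure D5:**
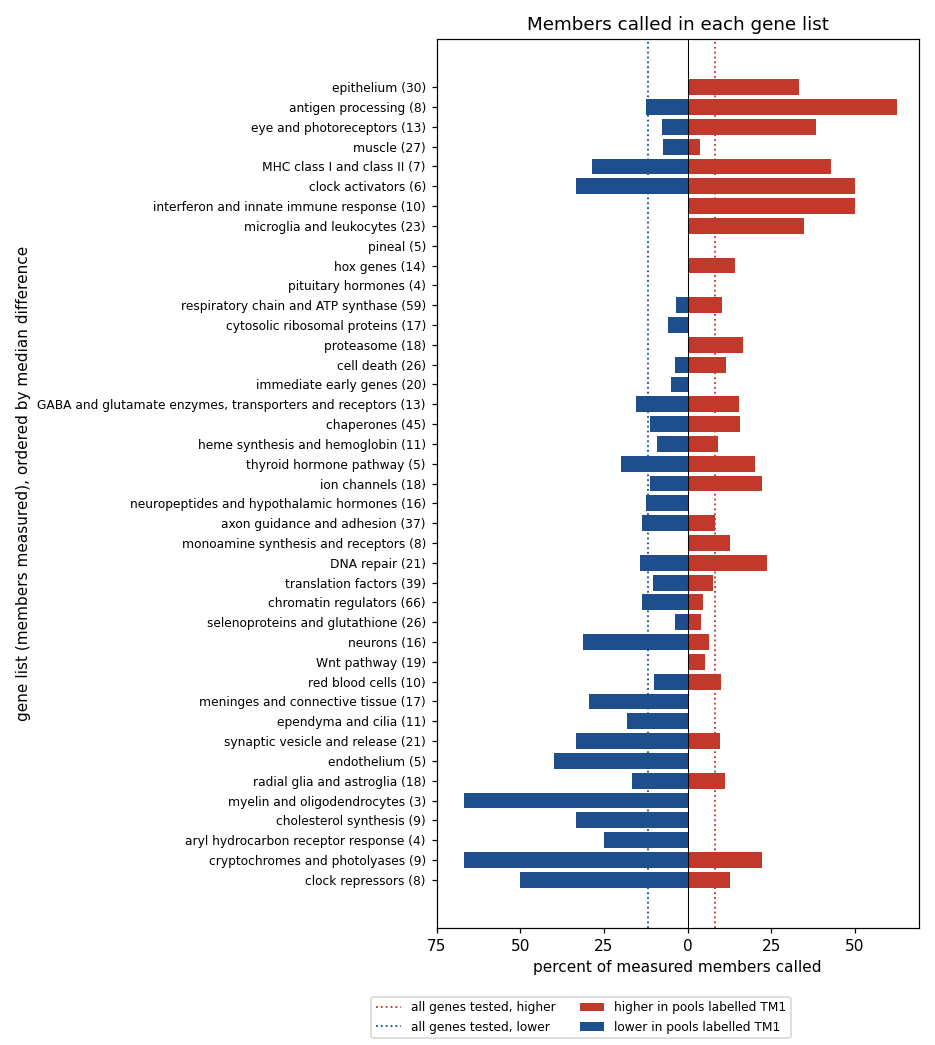
Percent of the measured members of each of 41 gene lists that were called higher (red, to the right) or lower (blue, to the left) in pools labelled TM1, ordered by the median difference of the list, with the number of members in parentheses and dotted lines at the shares of all genes (8.31% higher, 11.9% lower). Antigen processing (5 of 8), interferon (5 of 10) and clock activators (3 of 6) reach furthest to the right. Cryptochromes and photolyases (6 of 9) and the genes listed under myelin (2 of 3) reach furthest to the left. Of the latter, gpm6ab was not called after repeated quantile normalization, which left 1 of 3.

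Other genes that the study singled out were measured as well. acbd3 and acbd4, which encode acyl-CoA binding domain proteins, were both higher, by 0.52 (adjusted p = 0.00502) and 0.29 (adjusted p = 0.0194), the latter lost without TM1 M2 or Gaighatta F1 (up to 0.0707). pomca, the precursor of corticotropin and 1 of the 4 pituitary hormone genes above, had 0.44 (adjusted p = 0.711, but 0.0433 with the 8 arrays alone) and igf1, a growth factor, 0.16 (adjusted p = 0.741). The 2 probe sets of inhbaa, an activin subunit, had -0.32 and -0.57 (adjusted p = 0.255 and 0.0874).

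The pools labelled SH and Nadia more often lay nearer to the pools labelled TM1. For 771 of the 1654 called probe sets (46.6%) the means of the pools labelled SH and Nadia were both nearer to the TM1-labelled mean, for 329 (19.9%) both were nearer to the Gaighatta-labelled mean, and for 554 (33.5%) they were split. Among the 219 probe sets that differed at least 2-fold these counts were 121 (55.3%), 30 (13.7%) and 68 (31.1%). lgals3bp.1, for example, was at 8.64 and 7.86 in the pools labelled SH and Nadia, near the 8.58 to 9.22 of the pools labelled TM1, and npy8br at 3.62 and 3.41. cyp1a was an example of the second kind, and scamp5a, at 10.02 and 10.51, lay beyond the pools labelled TM1.

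Genes with several probe sets gave a check within the arrays. Of 598 such genes, 200 had at least 1 call, 130 had exactly 1, 63 had at least 2 in the same direction and 7 had calls in both directions. Of 35 genes with a call of at least 2-fold, 20 had a second probe set called in the same direction. A gene with a single called probe set among several, such as wls, erbin, nob1 or syt11a, therefore rests on the probes of that set. Whether these probes cover sequence that differs between the strains was not tested here. The study did look for such probes by strain and removed the probe sets it flagged. It still reported wls, under the name gpr177, after that step.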

How the data were processed

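RNA from pooled brains was hybridized to 16 Affymetrix zebrafish arrays, 10 µg per array. The authors normalized all arrays together with RMA and deposited log2 values. These cover 7958 probe sets, the number that the paper gives as left after its filters on signal and variability. Shares called are of this set and not of the whole array. Only 854 of the 7922 tested had an interquartile range of at least 0.5, the paper's stated minimum. Which versions they used is not given here. No reads or raw intensities were used, so the number of pools limits the precision. From these values limma 3.58.1 (R 4.3.3) was fitted with strain means on all 16 arrays, and p-values were adjusted by Benjamini-Hochberg over 7922 probe sets (36 control probe sets left out). Calls had an adjusted p under 0.05. A strain by sex fit gave the contrasts within each sex. The fit was tested on simulated data with known changes. Genes were named by a rule: the 12 largest called differences in each direction without overlap and with 1 gene symbol, up to 4 called and 2 other members of each list, the study's own genes, every further probe set of these, at most 2 unnamed probe sets in each direction and up to 6 differences between the sexes. Other names in the text were added after their values were seen. The members and gene lists were chosen with earlier results of these data known. Of 7922 probe sets, 5639 had 1 gene symbol, 54 several and 2229 none. In lists each gene was represented by its probe set with the highest mean. Nothing says that pools came from separate matings, so p-values measure the spread between pools. Each pool was also left out in turn. Some items are not reported here, and promoter sequences were not analysed here.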

Additional observations from a re-analysis of the deposited data

Results flagged for a closer look

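In 26 of 458 groups of 4 pools examined over the named probe sets, 1 pool lay far from the other 3 of its strain, and chance flags about 1 in 20 groups. In the pools labelled TM1, M1 was the pool apart in 10 of the 13, with the following log2 values: wls at 6.05 in a probe set that was not called, pde6ha at 8.70, krt91 at 8.37, mbpb at 6.39, snap25a at 11.89, stx8 at 5.04, gpm6ab at 10.89, neil1 at 4.1, icn at 10.04 and cfl1l at 6.43, each the lowest of its 4 pools. F2 stood apart for bhlhe40 (10.23) and sfrp1a (4.2), each the lowest, and for bmal1a (7.17, the highest).

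In the pools labelled Gaighatta the pool apart was F1 for tefb (4.57) and eif3eb (5.83), and F2 for ppdpfa (8.86), cd74a (10.76), rpe65a (6.84) and brms1 (6.21). M1 stood apart for b2m (8.85), aif1l (4.29) and uchl1 (9.28). M2 stood apart for selenop (10.44), hspa12a (9.33), serpinh1b (4.21) and an unnamed probe set (7.24). Without Gaighatta M1 aif1l differed by 1.09 in place of 1.81 and was still called in limma (adjusted p = 1.6e-06).

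The strain difference differed between the sexes, by a test of that difference, for 8 probe sets. The male minus female values were 5.50 and 3.47 for 2 unnamed probe sets, 2.44 for si:dkey-33i11.9, 2.03 for irf1b, 1.66 for ctss2.1, 1.57 for gbp1, and 1.55 for both anxa3b and c4b, with adjusted p of 0.00484 (anxa3b) to 0.0479 (c4b) in the strain by sex fit of limma. All 8 were lost without TM1 F1 or without Gaighatta F2, where no difference between the sexes was called in limma (402 and 308 at an unadjusted p under 0.05).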

How the results depend on the processing

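Of 1654 calls (655 higher, 999 lower, 219 at least 2-fold), an interquartile range of at least 0.5 left 454 (216 and 238) of 854 tested, a mean of at least 6 left 892 (323, 569 and 110) of 4252, and an adjusted p under 0.01 left 780 (306 and 474), each by testing or admitting fewer probe sets. Fits on female or male pools alone, with fewer samples, called 606 (253 and 353) and 321 (168 and 153). Pools of different strains share only a replicate number, so no pairing was taken. Same-numbered pools deviated together by a correlation of 0.307 in females and 0.110 in males, and a fit with sex and number as a replicate block called 1874 (1605 shared), called no longer cyp19a1b, opn1mw2, gnb3b and 1 probe set of rpe65a, and called in addition bhlhe40, both probe sets of inhbaa and the second of erbin. The other alternatives called 1351 to 2206. Leaving out 1 pool called 1216 to 1670 (490 to 664 higher, 723 to 1006 lower, 215 to 236 at least 2-fold). The 8 differences between the sexes became 2 with the 8 arrays alone, 5 with the replicate block or median centring, 1 with either filter, and 0 to 41 without 1 pool. Their cause was not tested. Of 175 named calls 121 held without each pool in turn and 54 were lost at least once, 29 ended with the 8 arrays alone and 14 after repeated quantile normalization. The 8 arrays alone also called 9 named probe sets that the main fit did not, of wls, nr1d2a, nfil3-6, krt4, krt15, icn, cfl1l, calr and pomca. The 1 reversed value was anxa3b in female pools only (-0.75, adjusted p = 0.0111, against 0.03 overall). Median centring raised the share of calls that were higher from 39.6% to 45.4%. The counts of genes called in female and male contrasts are given with the immune genes. Promoter motifs were planned and not run. Probe signal over background was not analysed here.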

Other observations

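Called probe sets were spread over the levels and the genome. The share called was 19.6% among probe sets with a mean under 5 and 21.7% among those above 8. By the suffix of the probe set, which marks how specific its probes are by design, the share was 20.7% for _at, 17.9% for _a_at, 24.1% for _s_at and 31.8% for _x_at. Across chromosomes it ranged from 15.3% to 24.7% of genes. Among 4862 pairs of measured genes that are neighbors in the RefSeq annotation, both genes were called in 208 pairs, 102 of them in the same direction, and a called gene had a called neighbor in 21.2% of cases against 19.8% for other genes. Neighboring pairs in which both differed included cry1b and bhlhe41, nr1d2b and thrb, and the immunoproteasome genes psmb8a, psmb12 and psmb9a. ifi27.1 and ifi27.2, which lie side by side, were higher by 1.26 and 2.03 in the pools labelled TM1. Such neighbors are not independent, and their probes can share sequence.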
